A study of Mus musculus with 10 samples.

Results

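Co-stimulatory and activation molecules are cell-surface proteins with which antigen-presenting cells instruct T cells. Genes for 6 of them, Cd86, Cd80, Icosl, Cd274, Cd83 and Cd40, were followed here by their names in both deposited tables, out of 545 endogenous genes of an nCounter mouse immune panel. Cd86 and Cd80 encode the B7 ligands of the T cell receptors CD28 and CTLA-4, Icosl the B7 ligand of ICOS, and Cd274 the ligand PD-L1 of the inhibitory receptor PD-1. Cd83 encodes an activation marker of dendritic cells, and Cd40 a receptor of the tumour necrosis factor receptor family that T cells engage through CD40 ligand, so that 4 of the 6 are ligands in the strict sense. In healthy brain, microglia, the resident macrophages, carry low amounts of these proteins, and inflammatory stimuli are known to raise them.

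The microglia came from the hippocampus of male Balbc pups at postnatal day 14 and were purified on a Percoll gradient and by FACS. In 5 pups, numbered 11, 17, 24, 38 and 59, brief daily separation (BDS) parted the pup from its mother for 15 min on each day from postnatal day 1 to 21, so it was still running at collection. The 5 control pups were numbered 1, 18, 40, 52 and 69, and the labels give no handling for them. Every pup came from a different litter and was read in 1 lane, after 5 rounds of PCR on cDNA from 2 ng of RNA.

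Lane depth differed between the groups. The geometric mean of 6 housekeeping genes, used to scale the lanes, was 113 to 1060 raw counts in control lanes and 477 to 1254 in BDS lanes, a gap between group means of 1.23 on the log2 scale, with control 52 and control 69 the shallowest lanes. The mean of the negative control probes lay between 5.50 and 13.1 raw counts in control lanes and between 8.63 and 11.6 in BDS lanes. All 13 microglia genes listed for the check of cell type exceeded the negative-control limit (the lane's mean of negative probes plus 2 SD) in every lane and took 36.4% to 42.9% of endogenous counts in control pups and 37.5% to 42.0% in BDS pups. Of 16 genes listed for T cells, the 1 that passed the 40% filter on lanes above that limit was Cd3eap, which encodes an RNA polymerase I subunit and marks no T cell, and Cd3d, Cd3e and Cd247 exceeded the limit in no lane. The 16, Cd3eap included, took 0.0312% to 0.159% of counts in control pups and 0.0255% to 0.0503% in BDS pups. Probe background weighs more in such shares in shallow lanes. In control 52 negative probes averaged 11.1 raw counts beside 76237 endogenous counts. The higher upper end in control pups is therefore not read as more T cell RNA.

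Cd86, Cd80, Icosl and Cd83 exceeded the limit in 10 of 10 lanes, Cd274 in 4 and Cd40 in none, so that 5 of the 6 genes were tested among 283 tested genes. Raw counts of Cd86 stood between 10.4 and 377 times above the lane's limit, while those of Cd80, Icosl and Cd83 came as close as 2.46, 2.83 and 2.83 times the limit in control 52. Counts of different probes are not compared with each other here, because each probe binds with its own efficiency. In bulk RNA, fewer cells carrying a transcript and less transcript per cell cannot be told apart.

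The comparison asked which of these genes differed between BDS and control pups. Values were higher in BDS lanes for Cd86, Cd83, Icosl and Cd274 and nearly the same for Cd80. By edgeR, 0 of the 5 had an adjusted p under 0.05, as did 0% of all 283 tested genes, and 1, Cd86, had one under 0.10, as did 8.13% of all tested genes. At an unadjusted p under 0.05 stood 3 of the 5, all higher in BDS, where 28.3% of all tested genes passed, 19.4% on the higher side and 8.83% on the lower. All 5 log2 fold changes were above 0, as were 55.8% of those of all tested genes. That count includes Cd80, whose sign changed with the scaling. It also includes Cd274, which passed the filter through 4 lanes, 3 of them BDS, so its direction adds no support. The median log2 fold change was 0.51 for the 5 and 0.49 for the 4 genes above the limit in every lane. That of all 283 genes was 0.09.

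**Figure D1:**
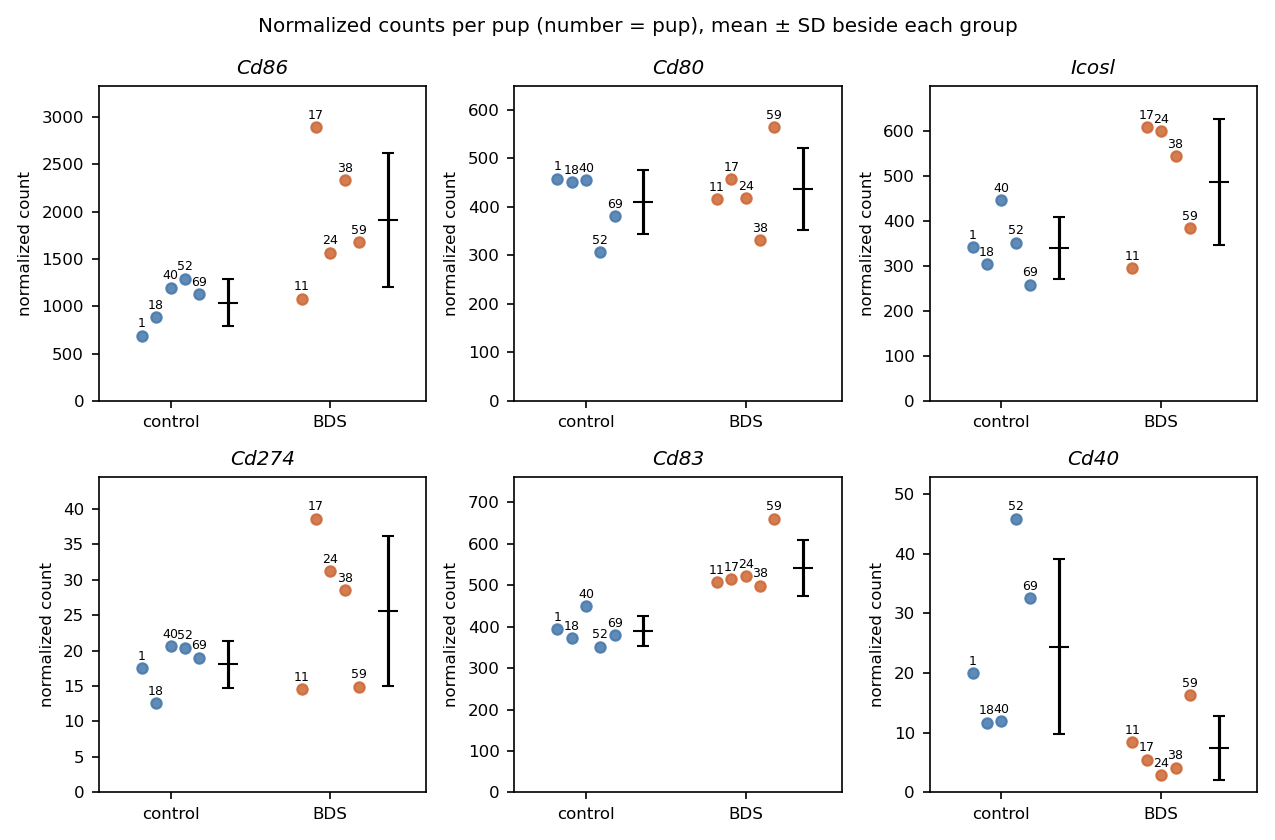
Normalized counts (scaled by housekeeping genes, vertical axes from 0) of the 6 genes in 5 control and 5 BDS pups, each point labelled with its pup number and the bar beside each group giving mean ± SD. Cd83 separates the groups, Cd86 lies above the highest control in 4 of 5 BDS pups, and Cd80 overlaps throughout.

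Cd86, whose protein appears early on activated antigen-presenting cells, had the largest log2 fold change and the smallest edgeR p of the 5 tested genes with the housekeeping scaling. Its normalized counts were 689.6 in control pup 1, 885 in pup 18, 1196 in pup 40, 1290.3 in pup 52 and 1127 in pup 69. In BDS pups they were 1079 in pup 11, 2893 in pup 17, 1565 in pup 24, 2333 in pup 38 and 1680.1 in pup 59. In BDS, 4 of 5 pups lay above the highest control and all 5 above the control mean, while BDS 11 lay within the control range. Control pups averaged 1038 ± 246 and BDS pups 1910.02 ± 708 (SD, n = 5 each), which edgeR put at 0.88 ± 0.26 on the log2 scale (SE; unadjusted p = 0.00419, adjusted p = 0.0791). By p it was number 15 of the 283 genes. DESeq2 with the same scaling gave Cd86 an adjusted p of 0.0200 and Cd83 one of 0.0464, in a fit where 26 of 283 genes passed 0.05. Leaving out BDS 11 gave Cd86 1.03 (edgeR adjusted p = 0.0297), in a fit where 19 of 279 genes passed. Leaving out control 40 gave 0.94 (edgeR adjusted p = 0.0415), where 47 of 273 passed. Leaving out BDS 17, the highest pup, gave 0.69 (edgeR adjusted p = 0.211), where 0 of 269 passed.

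Cd83 showed a smaller difference with much less spread. Normalized counts were 394 in control 1, 372 in control 18, 449.6 in control 40, 352 in control 52 and 380.2 in control 69. They were 508 in BDS 11, 515 in BDS 17, 523 in BDS 24, 499 in BDS 38 and 661 in BDS 59. All 5 BDS pups lay above all 5 controls, a separation found in 3.53% of tested genes on the higher side and 1.06% on the lower. The same separation was present in the share of endogenous counts, 0.0778% to 0.103% in control lanes against 0.107% to 0.143% in BDS lanes. The log2 fold change was 0.47 ± 0.17 (SE, n = 5 each; edgeR unadjusted p = 0.0140, adjusted p = 0.126). The exact two-sided permutation p was 0.00794, the smallest that 5 against 5 pups allow, and 0.145 after adjustment over the 283 genes. Within groups Cd83 varied by an SD of 0.15 on the log2 scale, and 2.03% of the 197 genes above the limit in every lane varied less, while the SD of Cd86 was 0.47 and the median over those genes 0.38. Scaling without Sdha gave a log2 fold change of 0.29 for Cd83.

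Icosl fell into high and low pups within the BDS group. In control lanes its normalized counts were 341 in pup 1, 304 in pup 18, 446 in pup 40, 352 in pup 52 and 258 in pup 69. BDS pups 17, 24 and 38 stood at 608, 599.6 and 544, above every control, whereas BDS 11 and BDS 59 stood at 295 and 384, inside the control range. BDS pups averaged 486 ± 139.8 and control pups 340.2 ± 69.5 (SD, n = 5 each), and the log2 fold change was 0.51 ± 0.23 (SE; edgeR unadjusted p = 0.0442, adjusted p = 0.161). Pups 17, 24 and 38 were also the deepest BDS lanes, and control 40, the highest control, was the deepest control lane. Fitted with lane depth, Icosl was at 0.25 (edgeR adjusted p = 0.587).

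Cd274 was close to background by the limit used here, whereas the authors' own call put it above background in 70% of samples. Its raw counts were 14, 14, 38, 4 and 7 in control pups 1, 18, 40, 52 and 69, and 12, 84, 54, 55 and 21 in BDS pups 11, 17, 24, 38 and 59. Only control 40 and BDS 17, 24 and 38 exceeded their limits, which are the same pups that were high in Icosl and include the deepest lane of each group. Cd274 entered the test through these 4 lanes, 3 of them BDS. Its log2 fold change was 0.55 ± 0.34 (SE, n = 5 each; edgeR adjusted p = 0.283), and 1.43 after subtraction of the negative-control mean and 0.36 in the fit that holds lane depth.

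Cd80, the other ligand of CD28 and CTLA-4, did not separate the groups. Normalized counts were 458, 451, 455, 306 and 380.2 in control pups 1, 18, 40, 52 and 69 and 416, 457, 419, 331 and 565 in BDS pups 11, 17, 24, 38 and 59. The lowest value of either group belonged to control 52 and the highest to BDS 59. The log2 fold change was 0.08 ± 0.19 (SE, n = 5 each; edgeR adjusted p = 0.790), and its sign depended on the scaling, at -0.06 with TMM and -0.09 without Sdha.

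Cd40 was at background in both groups. Raw counts were 16, 13, 22, 9 and 12 in control pups 1, 18, 40, 52 and 69 and 7, 12, 5, 8 and 23 in BDS pups 11, 17, 24, 38 and 59, all below the lane's limit, and the highest negative probe in these lanes read 26. The raw means were 14.4 ± 4.93 and 11.0 ± 7.18 (SD, n = 5 each; exact two-sided permutation p = 0.421). The authors' deposited table lists Cd40 among the genes present in under 40% of samples, with a fold change of 0.26 and an unadjusted p of 0.0443. Division by housekeeping means that span 11.1-fold over lanes gives 45.9 normalized counts in control 52 from a raw count of 9 and 5.51 in BDS 17 from a raw count of 12. No fold change is therefore given for Cd40.

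**Figure D2:**
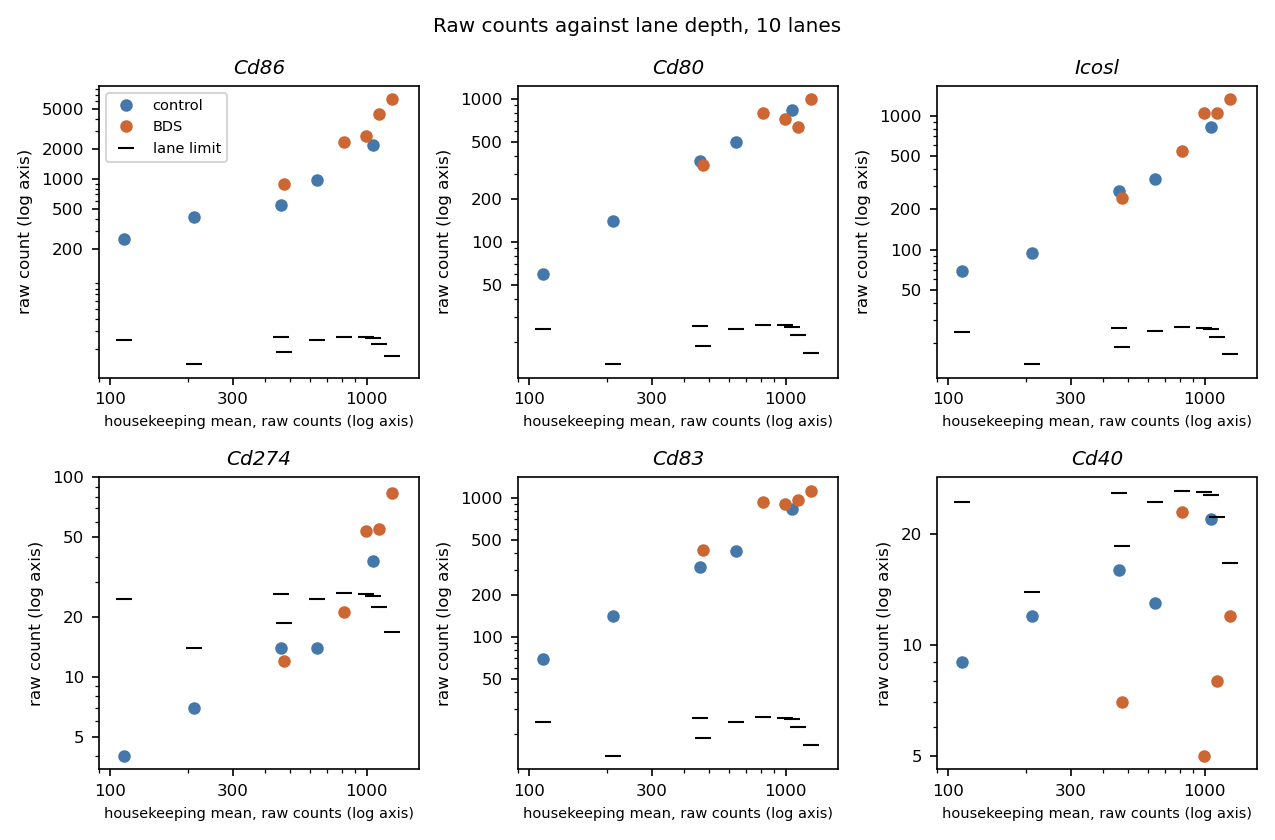
Raw counts of each gene (vertical, log axis) against the lane's housekeeping geometric mean (horizontal, log axis) in 10 lanes, with the lane's negative-control limit as a dash. Cd86, Cd80, Icosl and Cd83 climb with depth well above the limit, Cd274 crosses it in 4 lanes, and Cd40 stays below it.

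Because depth and group moved together, lanes of nearly equal housekeeping signal were also set side by side. These pairs, chosen after the values were seen, take each BDS lane with its nearest control lane where the gap was at most 0.15 on the log2 scale, which left 3 pairs and 2 control lanes. At 461 against 477 housekeeping counts, control 1 and BDS 11 had 552 and 892 raw counts of Cd86, 315 and 420 of Cd83, 367 and 344 of Cd80, 273 and 244 of Icosl, and 14 and 12 of Cd274. Control 40, at 1060 housekeeping counts, had 2201 raw counts of Cd86 against 2707 in BDS 24 and 4504 in BDS 38. For Cd83 the values were 827 against 904 and 963, for Icosl 820 against 1037 and 1050, for Cd274 38 against 54 and 55, and for Cd80 837 against 724 and 640. Cd86 and Cd83 were thus higher in the BDS lane of all 3 pairs and Cd80 lower in all 3, whereas Icosl and Cd274 were higher in 2. The share of all tested genes with 1 direction in all 3 pairs was not counted, so these directions are not read as a result. Control 40 served in 2 of the pairs, and control 1 had the lowest normalized count of Cd86 among controls. When edgeR was fitted with lane depth over all 10 lanes, Cd86 was at 0.82 and Cd83 at 0.40 on the log2 scale (edgeR adjusted p = 0.369 for both).

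The choice of lane scaling shifted all genes together. The median log2 fold change of all tested genes ran from -0.09 without Sdha to 1.35 with positive controls alone. Relative to that median Cd86 stood at 0.80 with the 6 housekeeping genes and between 0.77 and 0.90 under 8 other scalings, and Icosl at 0.42, between 0.35 and 0.43. Cd83 stood at 0.38, between 0.23 and 0.39, and Cd274 at 0.46, between 0.40 and 0.54. Cd80 lay at -0.01, between -0.18 and 0. Of the 6 scaling genes Polr1b was below the limit in 2 lanes, with 6 raw counts in control 52 and 13 in control 69, and scaling without it put Cd86 at 0.99 ± 0.26 (SE; edgeR adjusted p = 0.0436). Sdha ran only from 135 to 474 raw counts over the lanes, and scaling without it put Cd86 at 0.68 ± 0.25 (edgeR adjusted p = 0.116). Background subtraction gave Cd86 0.74 (edgeR adjusted p = 0.133), and limma on the authors' scores gave 0.65 (adjusted p = 0.178).

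**Figure D3:**
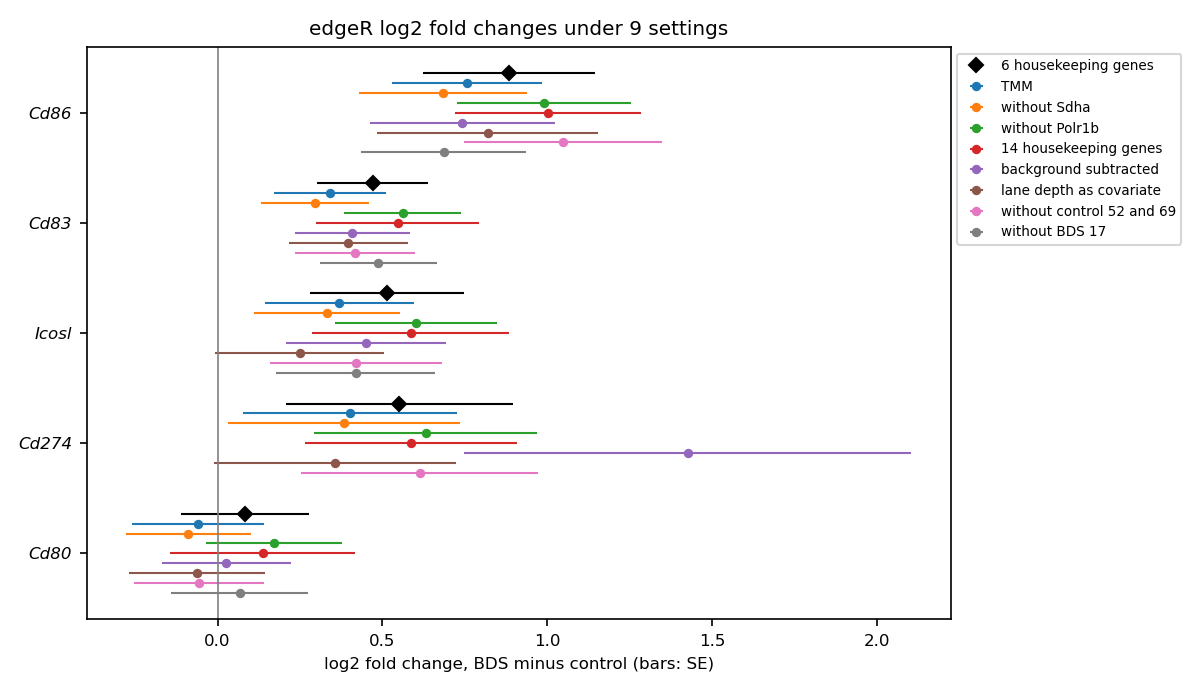
Log2 fold changes (BDS minus control, horizontal, bars SE) of the 5 tested genes from edgeR under 9 of the settings tried; the scaling to positive controls, which shifts all genes, is not drawn. Cd86, Cd83, Icosl and Cd274 lie above 0 in every setting drawn and Cd80 lies on either side of it; Cd274 was not tested without BDS 17.

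Within-lane ratios of raw counts asked whether these genes differed from each other in their response, since lane scaling cancels in them. In 10 pairs of tested genes none passed after adjustment over the pairs. The smallest p belonged to Cd80 over Cd83, whose log2 ratio averaged 0.06 ± 0.19 in control pups and -0.32 ± 0.16 in BDS pups (SD, n = 5 each), a difference of -0.38 ± 0.11 (SE; exact two-sided permutation p = 0.0159, adjusted p = 0.159). Of the 5 BDS lanes, 4 lay below the lowest control lane, control 52 at -0.20, and BDS 17 lay above it at -0.17. The log2 ratio of Cd86 over Cd80 averaged 1.31 ± 0.56 in control pups and 2.06 ± 0.65 in BDS pups, a difference of 0.75 ± 0.38 (SE, n = 5 each; exact permutation p = 0.111, adjusted p = 0.370). Cd86 over Cd274 differed by 0.52 ± 0.23 (exact permutation adjusted p = 0.317), Cd86 over Cd83 by 0.37 ± 0.32 (0.463) and Cd86 over Icosl by 0.36 ± 0.24 (0.460). Probe background does not cancel in such ratios, and Cd274 exceeded the limit in only 4 lanes. After background subtraction Cd86 over Cd274 was at -0.16, so no direction is read from ratios with Cd274. Without BDS 17 Cd86 over Cd83 was at 0.18, and without control 1 it was at 0.22 and Cd86 over Icosl at 0.21. Icosl over Cd83 differed by 0.01 ± 0.26 (SE, n = 5 each; exact permutation adjusted p = 0.968), an error that leaves room for a difference in either direction.

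Each gene was then set against the mean of the 13 microglia genes of its own lane. That reference was not constant between the groups. At an unadjusted edgeR p under 0.05, 4 of the 13 were higher in BDS and 3 lower. Of all tested genes 19.4% were higher and 8.83% lower at that threshold. The median log2 fold change of the 13 was 0.28, against 0.09 over all tested genes. Among the 13 the complement gene C1qa was at 0.76 ± 0.20, the integrin gene Itgam at -0.56 ± 0.18 and the fractalkine receptor gene Cx3cr1 at -0.63 ± 0.23 (SE, n = 5 each; edgeR adjusted p = 0.0642, 0.0964 and 0.126), the last at -0.38 without control 52 and -0.13 when fitted with lane depth. The ratios are therefore differences from a mean whose genes moved in both directions. Cd86 was higher by 0.65 ± 0.23 in BDS lanes on the log2 scale (SE, n = 5 each; exact two-sided permutation p = 0.0238, adjusted over the 5 genes p = 0.119), and 0.79 without BDS 11 (exact permutation adjusted p = 0.0397). Cd83 was higher by 0.29 ± 0.12 (exact permutation p = 0.0635, adjusted p = 0.159), and here its groups overlapped, since controls 1, 18 and 40 lay above BDS 38. Icosl differed by 0.30 ± 0.24 (0.15 without control 69, 0.18 without BDS 24), Cd274 by 0.14 ± 0.29 and Cd80 by -0.10 ± 0.21 (exact permutation adjusted p = 0.410, 0.659 and 0.659).

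**Figure D4:**
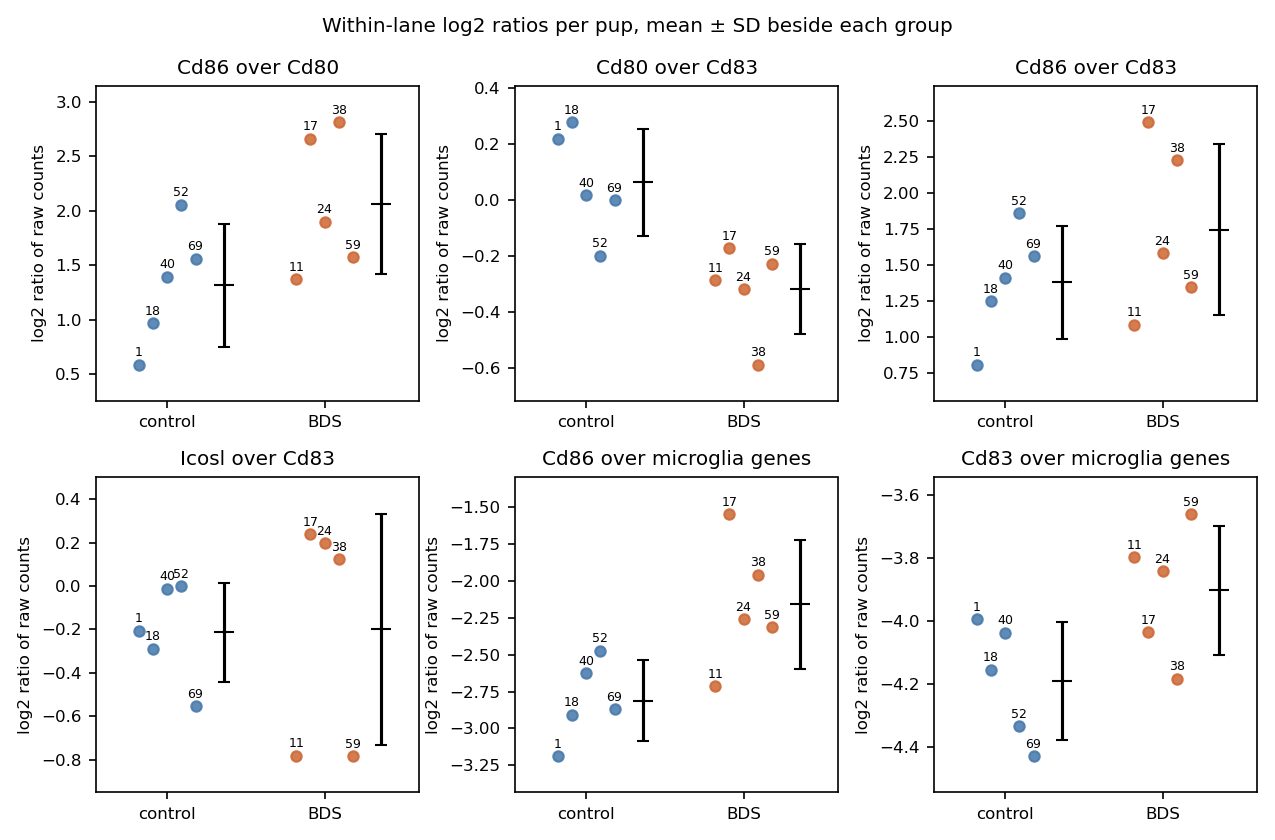
Log2 ratios of raw counts within a lane (vertical) for 4 pairs of genes and for Cd86 and Cd83 over the mean of 13 microglia genes, each point a pup with its number and the bar giving mean ± SD (n = 5 per group). Cd80 over Cd83 is lower in BDS apart from 1 overlapping lane, and Icosl over Cd83 spreads widely in BDS.

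The genes also followed each other to different degrees from pup to pup. Over the 10 lanes, on log2 normalized counts, Cd86 had a Pearson r of 0.76 with Icosl and 0.75 with Cd274, 0.58 with Cd83 and -0.10 with Cd80. Icosl and Cd274 had 0.85, and Cd274 was the third most similar of all tested genes to Icosl. Once group means were removed, Cd86 and Cd83 had an r of -0.08, while Icosl and Cd274 kept 0.82 and Cd80 and Cd83 had 0.77. These are descriptions over lanes that share their scaling factors and differ in depth. Cd274 exceeded the limit in only 4 of the 10 lanes, so its r values include lanes at background.

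Most similar to Cd86 among the tested genes were Nfatc1 (r = 0.98), a transcription factor activated by calcineurin, the initiator caspase gene Casp8 (r = 0.98) and the Src-family kinase gene Fyn (r = 0.96). With group means removed these values were 0.96, 0.96 and 0.93 (n = 10 lanes). The log2 fold changes of these genes were 0.87 ± 0.28 for Nfatc1, 0.83 ± 0.23 for Casp8 and 0.96 ± 0.25 for Fyn (SE; edgeR adjusted p = 0.0964, 0.0642 and 0.0642), beside 0.88 for Cd86. The genes were picked by r over lanes of both groups, so fold changes of the same direction follow largely from the choice. Among the genes nearest to Icosl was Stat5a (r = 0.86), a signal transducer of cytokine receptors. Those nearest to Cd83 were the innate sensing genes Tbk1, Irak4 and Tlr4 (r = 0.92, 0.86 and 0.85), with 0.68, 0.64 and 0.67 once group means were removed. Those nearest to Cd80 were the RNA sensor gene Ddx58, the NKG2D ligand gene H60a (r = 0.81 each) and Jak2 (r = 0.78).

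**Figure D5:**
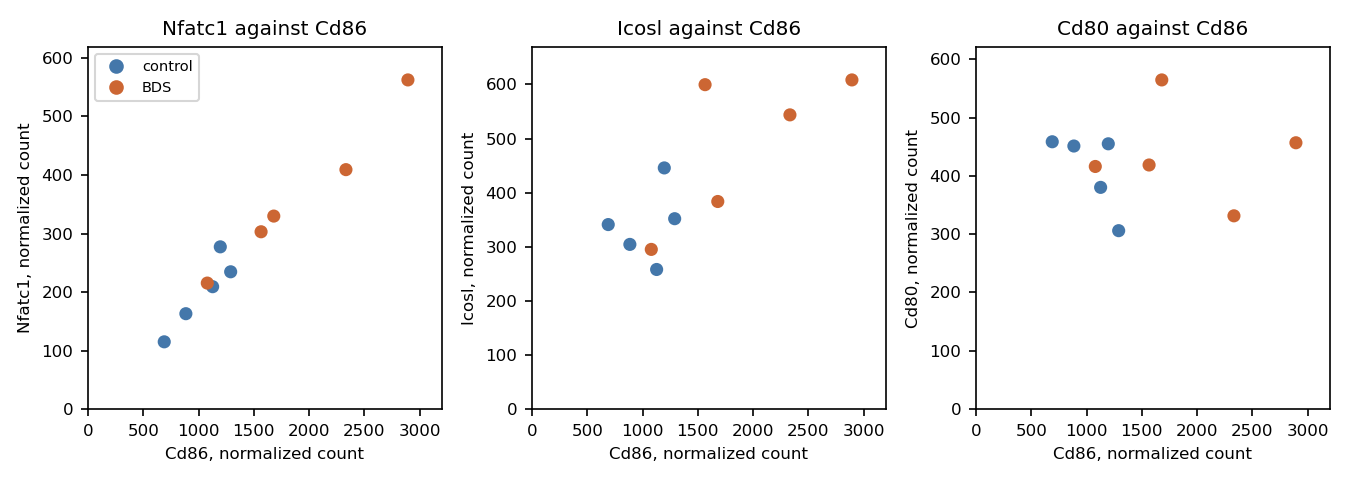
Normalized counts (linear axes from 0) of Nfatc1, Icosl and Cd80 against Cd86 in 10 lanes, coloured by group. Nfatc1 follows Cd86 through both groups, Icosl follows it loosely, and Cd80 does not follow it (r = -0.10 on the log2 scale).

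The receptors to which these molecules bind on T cells were mostly at background. Of 5 receptor and partner genes, Cd28 and Ctla4 exceeded the limit in no lane and Pdcd1, which encodes PD-1, in 3. Cd40lg, the partner of Cd40, exceeded it in 4 lanes, and its raw counts, 8 to 44 in control lanes and 5 to 43 in BDS lanes, covered nearly the same range. After division by the housekeeping means these became 29.0 ± 9.66 normalized counts in control pups and 13.4 ± 5.62 in BDS pups (SD, n = 5 each), and edgeR put Cd40lg at -0.96 ± 0.36 on the log2 scale (unadjusted p = 0.0168, adjusted p = 0.126). These counts lie near the limit in lanes of unequal depth, as those of Cd40 do, and no direction is read from them. Icos, the receptor of the Icosl product, was above the limit in 9 lanes, with 75.1 ± 14.9 normalized counts in control pups and 70.9 ± 8.36 in BDS pups (SD, n = 5 each), and edgeR put it at -0.08 ± 0.23 on the log2 scale (adjusted p = 0.832), and it ran from -0.17 without control 1 to 0.03 without control 18. Of 15 other B7-type, TNF-family and adhesion genes on the panel 3 were tested and none passed over all genes. The adhesion ligand gene Icam1 stood at -0.11 ± 0.23 and its relative Icam4 at -0.65 ± 0.28, or -0.29 with lane depth as a covariate (edgeR adjusted p = 0.779 and 0.156 without it). Icam1 ran from -0.25 without control 52 to 0.03 without control 69. The third, Tnfrsf14, was at 0.00 ± 0.60, with -0.29 without BDS 17, 0.57 without control 52 and 0.78 when fitted with lane depth.

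Genes of CD40 signalling, measured although Cd40 itself was at background, included 14 tested of 17 on the panel. None passed over all genes. At an unadjusted edgeR p under 0.05, 3 of the 14 were higher and none lower, near the 19.4% of all tested genes on the higher side. Of the 14, 10 were above 0, beside 55.8% of all tested genes, and their median log2 fold change was 0.19, against 0.09 over all genes. Those 3 were Jak3, a kinase of cytokine receptors, at 1.07 ± 0.27 (0.66 with lane depth as a covariate), and the IkB kinase subunits Chuk at 0.68 ± 0.21 and Ikbkg at 0.58 ± 0.25 (SE, n = 5 each; edgeR adjusted p = 0.0642, 0.0904 and 0.156). Of 9 MHC class II genes on the panel, whose products show the peptide that co-stimulation accompanies, 4 were tested and none passed over all genes, with a median of -0.08. H2-Ab1 stood at -0.16 ± 0.20 and H2-Ob at -0.27 ± 0.25 (edgeR adjusted p = 0.592 and 0.487), with H2-Ab1 at -0.0088 without control 1 and H2-Ob at -0.11 without BDS 17, and H2-Aa exceeded the limit in 1 lane. The invariant chain gene Cd74 was at 1.098 ± 0.51 (edgeR adjusted p = 0.169), and at 0.37 without BDS 17. It exceeded the limit in 6 lanes, every BDS lane among them. Raw counts of Cd74 were 8 to 30 in control lanes and 30 to 260 in BDS lanes. It thus passed the filter mainly through the group where it was higher, and no direction is read from it.

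The panel holds only part of the genes listed for other antigen-presenting cells. It has 6 of 10 for dendritic cells and 5 of 8 for monocytes and perivascular macrophages, without Flt3, Zbtb46, Mrc1 or Lyve1. Batf3, Blnk and Cd79b exceeded the limit in 10 lanes and Ccr2 in 9. Of 6 dendritic cell genes 2 were tested, with Batf3 at 0.00 ± 0.28 (edgeR adjusted p = 0.990), 0.23 without control 52 and 0.45 when fitted with lane depth. The list took 0.0228% to 0.101% of endogenous counts in control lanes and 0.0244% to 0.0383% in BDS lanes, and its Ccr7 and Cd209g exceeded the limit in no lane and Itgax in 3. As for the T cell list, probe background weighs more in shallow lanes, so shares of lists near background are not compared between the groups. Of 5 monocyte and perivascular macrophage genes Ccr2 alone was tested, with 113 ± 19.1 normalized counts in BDS pups and 75.1 ± 15.4 in control pups (SD, n = 5 each), and edgeR put it at 0.59 ± 0.23 on the log2 scale (unadjusted p = 0.0232, adjusted p = 0.137). Cd163, Marco and Msr1 exceeded the limit in no lane. That list took 0.0191% to 0.0538% of counts in control lanes and 0.0254% to 0.0344% in BDS lanes. Among 8 B cell genes, Blnk was at 0.40 ± 0.20 and Cd79b at -0.14 ± 0.22 (edgeR adjusted p = 0.198 and 0.676), the latter at -0.28 without control 40 and -0.055 without BDS 11, and Ms4a1 and Pax5 exceeded the limit in no lane. The list took 0.230% to 0.341% in control lanes and 0.312% to 0.415% in BDS lanes. Of 5 endothelial genes 3 were tested, with Cdh5 at 0.97 ± 0.37 (0.40 with lane depth as a covariate), Pecam1 at -0.56 ± 0.24 and Cd34 at -0.42 ± 0.24 (edgeR adjusted p = 0.128, 0.156 and 0.258). Without BDS 17 Cdh5 was at 0.61 and Cd34 at -0.27, and without control 1 Pecam1 was at -0.36. That list took 0.192% to 0.399% of counts in control pups and 0.215% to 0.264% in BDS pups. Of 4 neutrophil genes none was tested, and of 6 NK cell genes 2 were, Prf1 at 0.33 ± 0.35 and Klrk1 at -0.06 ± 0.24 (edgeR adjusted p = 0.552 and 0.884). The part of these other cell types in the values of Cd86 and Cd83 was not tested.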

How the data were processed

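The authors deposited raw barcode counts of 545 endogenous genes, 14 housekeeping genes, 8 negative and 6 positive control probes; the software that read them is not given in the sources used here. A further deposited table holds normalized values, called a score here because the authors scaled and rounded them; per the series' design text they used positive controls and 5 housekeeping genes, although it names 6. It also holds the percent of samples above background, a fold change that is a ratio of group means and an unadjusted p-value, all the authors' own, per the file headers. Control probes, 8.63% of all counts, and a repeated header line were left out of the gene tests.

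Each lane was scaled here to the geometric mean of Tbp, Sdha, Polr1b, Oaz1, Gapdh and Alas1, and a normalized count is the raw count over that mean, brought back to the average lane. Tested were the 283 genes that passed the negative-control limit (mean plus 2 SD within the lane) in 4 or more of the 10 lanes (40%). The test was edgeR 4.0.16 (two-sided quasi-likelihood, no covariate, R 4.3.3) with Benjamini-Hochberg adjustment over all 283; SEs follow from its F statistic. Log2 values use a pseudocount of 1. Single values and within-lane ratios were compared by exact two-sided permutation of the pups. The alternatives were limma 3.58.1, DESeq2 1.42.0, other scalings and filters, background subtraction, lane depth in the model and fits leaving out pups. Endogenous counts per lane ran from 76237 to 968930 and carry no molecular identifiers. No pair of lanes within a group agreed within sampling noise (chi-square per degree of freedom at least 22.8).

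The genes and lists were chosen with earlier results of these data known. By rule, the text names the 6 genes, up to 3 genes per list by p, the 3 genes most correlated with each gene above the limit in all lanes, the scaling genes and markers. Any other gene was named after its values were seen. Some genes that this rule names are not reported here.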

Additional observations from a re-analysis of the deposited data

Results flagged for a closer look

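Of 42 groups of 5 lanes examined, 1 held a value far from its neighbours, where chance would give about 1 in 20. It was Cd83 in BDS 59, at 661 normalized counts, with the other BDS lanes between 499 and 523; the gap to the nearest lane was 0.852 of the group's range, above Dixon's critical value of 0.710. Without BDS 59 the log2 fold change of Cd83 was 0.39 (edgeR adjusted p = 0.202). BDS 59 was also the highest lane in Cd80.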

How the results depend on the processing

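Fits were repeated under 29 alternatives, 10 of them leaving out a pup. No paired analysis was possible because the pup numbers of the groups do not match. Cd86 stayed above 0 in all 29 (0.65 to 2.25) and passed an adjusted p of 0.05 in 6: 0.99 without Polr1b, 0.88 with DESeq2 and housekeeping factors, 0.74 with DESeq2's own factors, 0.94 in limma with sample weights, and without BDS 11 or control 40 (single pups left out: 0.69 to 1.03). Cd83 (0.29 to 1.58) passed in 3: 0.46 with DESeq2 and housekeeping factors, 0.53 with sample weights and 0.53 without control 40 (single pups: 0.39 to 0.53). Icosl passed in none (0.25 to 1.71). Cd274, with values in 24, passed at 1.89 with positive controls alone. Cd80 turned negative in 8: -0.060 with TMM, -0.070 with median-of-ratios, -0.088 without Sdha, -0.063 with lane depth, -0.075 with DESeq2's own factors, -0.097 on the authors' scores, -0.056 without control 52 and 69, and -0.024 without BDS 59 (single pups: -0.024 to 0.17).

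Genes called at an adjusted p under 0.05, 0 by edgeR (80 at an unadjusted p under 0.05), numbered 14 with positive controls alone, 15 without Polr1b, 12 without Gapdh, 10 on the 197 genes above the limit in all lanes, 26 and 30 with DESeq2, 85 with sample weights, and 0 to 47 with single pups left out (47 without control 40, 19 without BDS 11). The count of 80 became 128 with positive controls, 139 with no filter, 36 with lane depth, 122 with sample weights, and 44 to 104 with single pups left out (44 without BDS 17). The 80 split 55 higher to 25 lower, against 36 of 75 higher with TMM, 25 of 74 without Sdha and 76 of 88 without Polr1b.

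Among ratios, Cd86 over Cd274 turned to -0.16, Icosl over Cd274 to -0.47 and Cd274 over Cd83 to 0.49 after background subtraction. Without control 52 and 69 Icosl over Cd274 was -0.10, Icosl over Cd83 -0.032 and Cd274 over Cd83 0.072. With single pups left out Icosl over Cd83 ran from -0.098 to 0.16, Cd274 over Cd83 from -0.33 to 0.086, Cd80 over the microglia genes from -0.20 to 0.040, Cd274 over them from -0.016 to 0.31, and Cd86 over them from 0.50 to 0.79. The causes were not tested. Cd40 had a value only with no filter. Raw counts of Cd274 exceeded the negative-control limit in 4 lanes and those of Cd40 in none, which limits what can be said of both.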
